A study of Arabidopsis thaliana with 42 samples.

Results

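The 7 transcripts of Arabidopsis thaliana, AT3G62550, AT3G62950, AT3G15630, CCL, AT3G10020, AT4G14270 and AT1G72060, were measured in seedlings of lines with mutations in ACC synthase (ACS) genes. They are read through 1 probe set each, 7 of the 22746 probe sets tested, found by their gene symbol in the platform annotation. The genes were picked from measured values of these arrays, because they were low in the line acs6E and high in the lines penta, hexa, hepta and miR. Their differences from Col and between acs6E and other lines are therefore a description: they carry no p, and where genes past the threshold are counted in them, the count supports nothing. Comparisons among the remaining lines did not enter the choice and were tested, apart from the acs2B and acs2C values of AT3G62550, which were already known. The data go against the working description for 1 gene: AT1G72060 was not low in acs6E.

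The series holds 42 one-colour Affymetrix arrays of whole seedlings, 3 for each of 14 groups, and titles name arrays as biological replicates. A single mutant set has 8 lines (acs9B, acs6E, acs5D, acs5C, acs4A, acs2C, acs2B and acs1A) beside the wild type Col, and a higher order set has penta, hexa, hepta and miR beside Col arrays of its own. All groups were grown alike for 10 days in the light on medium with 1% sucrose, at 25 C with 16 h of light a day, after 2 days of cold at 4 C. The labels give a line's name and set only. Alleles, the genes mutated in penta, hexa and hepta, the meaning of miR, the number of plants behind an array and the hour of harvest are not stated in the labels. RefSeq lists 12 ACS genes, and 0 of them had a probe set named here, which left the check of each mutated gene in its own line undone.

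ACC synthase makes ACC, the direct precursor of the gaseous hormone ethylene, and plants hold a family of such enzymes that act as dimers. The 7 genes are not members of that pathway. CCL encodes an mRNA known for its short half-life, whose stability is under clock control. AT4G14270 encodes a protein with a PAM2 motif, the short peptide through which proteins bind poly(A)-binding protein. AT3G62950 encodes a CC-type glutaredoxin, a small redox protein of a class found in land plants. AT3G62550 encodes a universal stress protein domain, AT3G10020 a protein of unknown function whose mRNA is among those induced widely by low oxygen, and AT1G72060 a putative inhibitor of serine-type endopeptidases. The function of AT3G15630 is unknown.

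Values are the deposited log2 expression values, and each set was read against its own Col arrays. Array medians were 6.77 to 6.84 in the single set and 6.24 to 6.32 in the higher order set, so levels are not tested across sets. The single set is split by transcripts added at labelling or hybridization: the labelling control thr was at 7.08 to 8.14 on line arrays and 6.51 to 6.68 on Col arrays, and the hybridization control cre at 12.55 to 12.91 on line arrays and 13.11 to 13.29 on Col arrays. In differences of a single line from Col, genotype and labelling or hybridization cannot be told apart. The control bioC parted the single lines once more, with 14 arrays at 7.07 to 7.5 and 10 arrays at 8.95 to 9.30, those of acs9B, acs6E and acs5D and replicate 2 of acs2B. In the higher order set bioC was at 7.71 to 8.16 on line arrays and 7.71 to 7.94 on Col arrays. Whole seedlings were measured, so fewer cells of a type and less RNA per cell cannot be told apart.

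In acs6E, 6 of the 7 transcripts were lower than in Col, with differences of -1.86 to -3.27 on the log2 scale, and in each of the 4 higher order lines all 7 were higher than in their Col. Over all probe sets 15.5% were called lower in acs6E, at an adjusted p below 0.05 by limma, and 2.08% were called higher in penta, 4.44% in hexa, 6.96% in hepta and 12.3% in miR. Since these contrasts chose the genes, nothing is read from their counts. In penta the smallest difference, 0.46 for AT1G72060, dropped out without Col replicate 1, Col replicate 3, penta replicate 2 or penta replicate 3, which left 6. The median difference of the 7 genes was -2.0 in acs6E, 1.12 in penta, 1.17 in hexa, 1.76 in hepta and 1.89 in miR, while the median over all probe sets lay at -0.024, -0.003, 0.021, 0.009 and 0.014 in the same lines.

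**Figure D1:**
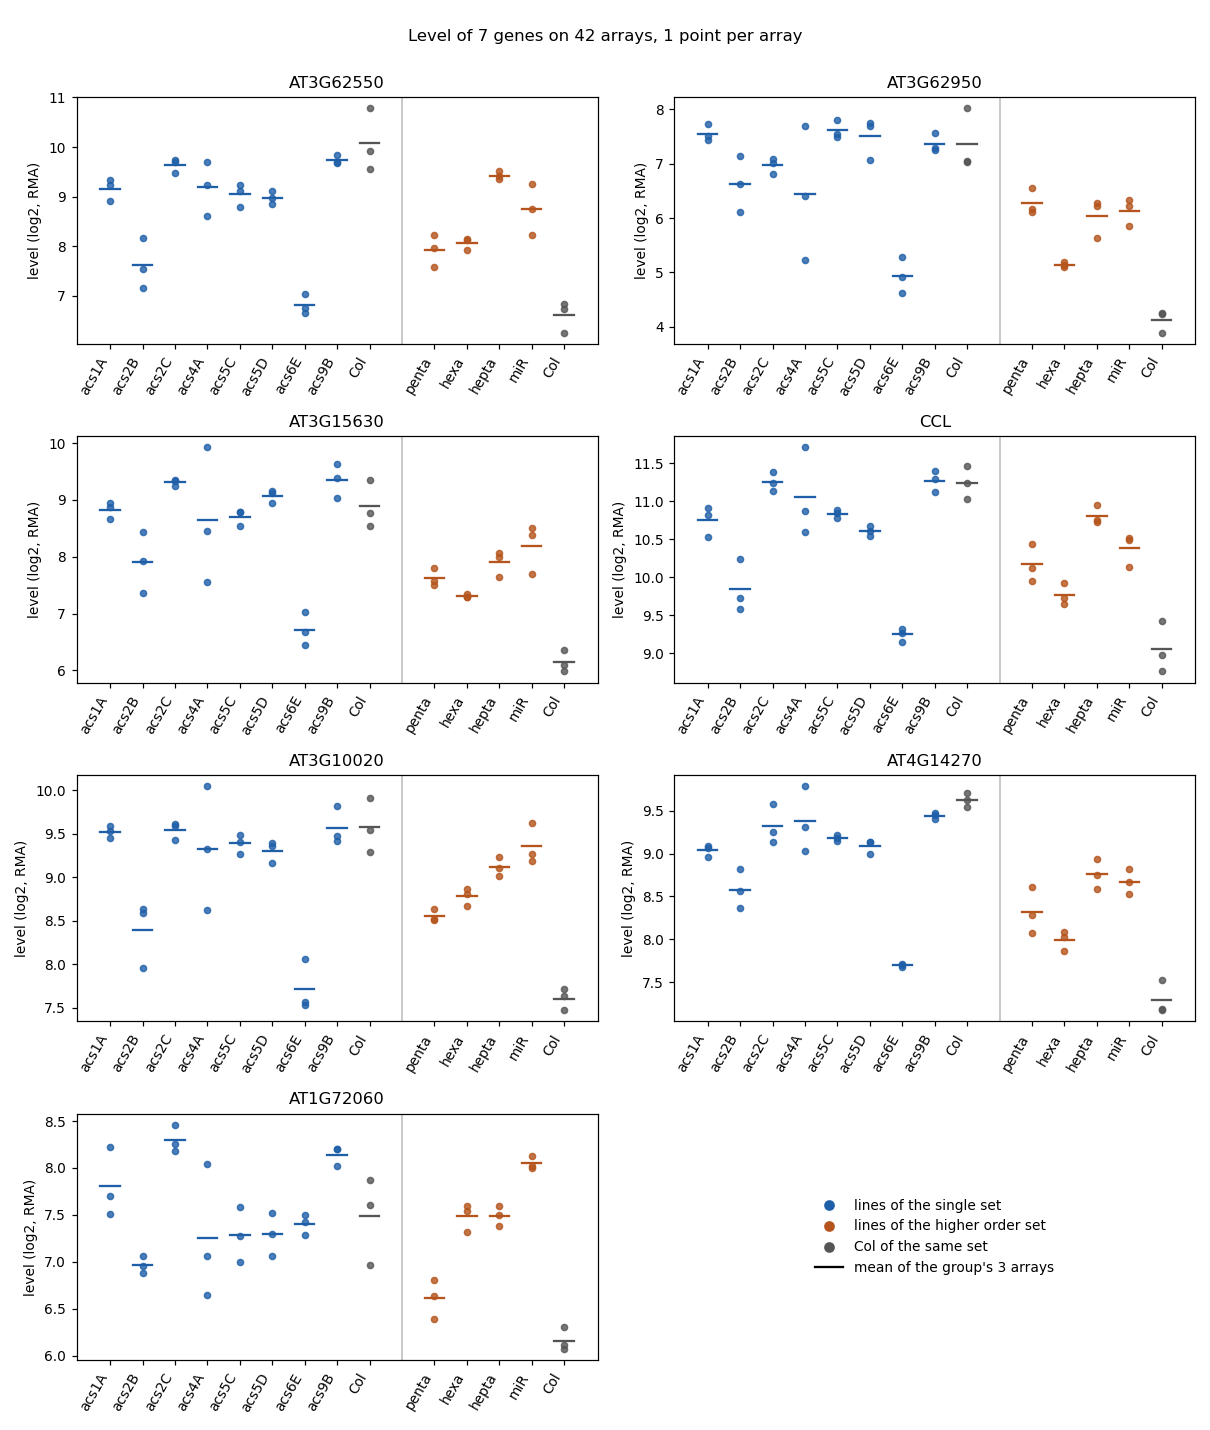
Log2 level (vertical axes, RMA) of each gene on every array, with lines of the single set left of the grey bar, lines of the higher order set right of it and the Col arrays last in each set. Points are arrays and bars are means of 3 arrays. In acs6E 6 of the 7 genes sat below every Col array, and in the higher order set all 4 lines sat above every Col array for all 7 genes. These values chose the genes, and the share of all probe sets parted in this way was not computed.

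AT3G62550, the universal stress protein gene, moved farthest in acs6E of the 7 genes. Its level was 7.03, 6.76 and 6.65 on the acs6E arrays, against 10.78, 9.55 and 9.93 on the Col arrays. The groups did not overlap, and the difference was -3.27 ± 0.25 (SE), a 9.68-fold lower signal. In the higher order set it was at 8.22, 7.97 and 7.58 in penta, 8.12, 7.92 and 8.15 in hexa, 9.42, 9.35 and 9.51 in hepta and 8.75, 9.26 and 8.23 in miR, against 6.26, 6.84 and 6.73 in Col. Every line array was above every Col array there, and the rise was 2.48-fold in penta, 2.74-fold in hexa, 7.05-fold in hepta and 4.4-fold in miR.

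AT3G62950, the CC-type glutaredoxin gene, was at 5.28, 4.62 and 4.91 in acs6E, against 8.02, 7.06 and 7.03 in Col (-2.43 ± 0.37). In the higher order set its order of lines was another one than that of AT3G62550. It was at 6.56, 6.16 and 6.11 in penta, 5.19, 5.14 and 5.10 in hexa, 5.63, 6.22 and 6.28 in hepta and 6.22, 6.33 and 5.86 in miR, against 3.89, 4.24 and 4.25 in Col. Penta, at 2.15 ± 0.16 above Col or 4.44-fold, was the highest line for this gene, and hexa, at 1.02 ± 0.16 above Col, the lowest line. On the Col arrays of this set its signal stood at the 22.8 percentile of all probe sets, among the dim ones.

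CCL, the short-lived mRNA, was at 9.27, 9.15 and 9.32 in acs6E, against 11.46, 11.03 and 11.24 in Col (-2.0 ± 0.19, 4-fold lower). The acs6E arrays lay close together and well under Col. Its level was 10.44, 10.12 and 9.95 in penta, 9.65, 9.73 and 9.92 in hexa, 10.75, 10.73 and 10.95 in hepta and 10.52, 10.49 and 10.13 in miR, against 8.76, 9.42 and 8.97 in Col. No line overlapped Col, and the rise ran between 0.72 ± 0.15 in hexa and 1.76 ± 0.15 in hepta.

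AT4G14270, the PAM2 motif gene, had the tightest values in acs6E, at 7.67, 7.71 and 7.70, against 9.71, 9.54 and 9.63 in Col (-1.93 ± 0.13). In the higher order set it was at 8.61, 8.28 and 8.07 in penta, 7.86, 8.03 and 8.08 in hexa, 8.75, 8.94 and 8.59 in hepta and 8.67, 8.82 and 8.53 in miR, against 7.17, 7.52 and 7.18 in Col. As for CCL, hexa was the lowest and hepta the highest line, with differences from Col of 0.70 ± 0.13 and 1.47 ± 0.13.

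AT3G10020, the low oxygen gene, was at 8.06, 7.56 and 7.53 in acs6E, against 9.91, 9.29 and 9.54 in Col (-1.86 ± 0.23). In the other set it was at 8.64, 8.51 and 8.52 in penta, 8.81, 8.87 and 8.67 in hexa, 9.11, 9.01 and 9.23 in hepta and 9.27, 9.62 and 9.19 in miR, against 7.63, 7.71 and 7.47 in Col. For this gene the means stood in the order penta, hexa, hepta and miR, with differences from Col of 0.95, 1.18, 1.51 and 1.76 (SE 0.10 each). Only miR and hepta, neighbours in that order, overlapped.

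AT3G15630, of unknown function, was at 7.03, 6.44 and 6.67 in acs6E, against 9.36, 8.55 and 8.77 in Col (-2.18 ± 0.35). It was at 7.80, 7.58 and 7.5 in penta, 7.30, 7.35 and 7.29 in hexa, 7.64, 7.99 and 8.07 in hepta and 8.38, 8.51 and 7.69 in miR, against 5.98, 6.35 and 6.10 in Col. The hexa arrays lay close together and below every other line array, and still 1.17 ± 0.16 above Col.

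AT1G72060, the putative protease inhibitor, parted from the other 6 genes in the single set. It was at 7.29, 7.42 and 7.5 in acs6E, within the range of 7.61, 6.97 and 7.87 in Col, and the difference was -0.08 ± 0.24 with a 95% interval of -0.58 to 0.43. Its lowest line was acs2B, at 6.95, 7.06 and 6.88, and its highest was acs2C, at 8.26, 8.18 and 8.46. In the other set it did rise with the rest, to 6.39, 6.64 and 6.81 in penta, 7.32, 7.54 and 7.59 in hexa, 7.5, 7.38 and 7.59 in hepta and 8.02, 8.00 and 8.13 in miR, against 6.07, 6.30 and 6.11 in Col. Penta was the lowest of the 4 lines and miR the highest, 3.71-fold above Col.

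**Figure D2:**
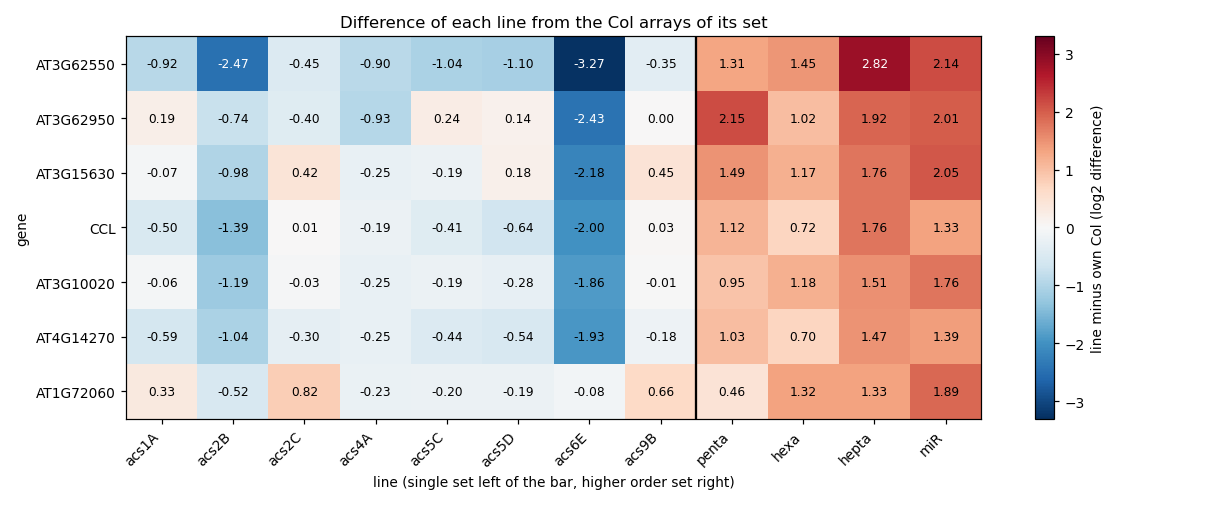
Log2 difference of each of 12 lines (columns) from the Col arrays of its own set for each of the 7 genes (rows), with blue lower and red higher than Col. Apart from AT1G72060 the acs6E column is the lowest of the single set, from -1.86 to -3.27, and all cells of the higher order lines are above 0.

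Among the single lines, acs2B came next to acs6E. Of the 7 genes 5 were called lower than Col in acs2B (12.5% of all probe sets were), with differences of -2.47 ± 0.25 for AT3G62550, -1.39 ± 0.19 for CCL, -1.19 ± 0.23 for AT3G10020, -1.04 ± 0.13 for AT4G14270 and -0.98 ± 0.35 for AT3G15630. AT3G62950, at -0.74 ± 0.37, and AT1G72060, at -0.52 ± 0.24, did not pass. The comparison shares its Col arrays with that of acs6E. Leaving out 1 array gave 4 to 6 genes.

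In the other 6 single lines the differences from Col were of mixed size. AT3G62550 was below Col in all of them, by -0.35 in acs9B to -1.10 in acs5D (SE 0.25), and AT4G14270 by -0.18 in acs9B to -0.59 in acs1A (SE 0.13). CCL ran from -0.64 in acs5D to 0.03 in acs9B, AT3G10020 from -0.28 in acs5D to -0.01 in acs9B, AT3G15630 from -0.25 in acs4A to 0.45 in acs9B and AT3G62950 from -0.93 in acs4A to 0.24 in acs5C. AT1G72060 was higher than Col in acs2C (0.82 ± 0.24) and acs9B (0.66 ± 0.24). Of the 7 genes 3 were called in acs5D, where 17.6% of all probe sets were called in either direction. In acs5C (19.2%) and acs1A (21.4%) 2 of 7 were called, and in acs4A (20.3%), acs9B (25.6%) and acs2C (26.6%) 1 of 7. These counts rested on single arrays: without Col replicate 1 they were 1 in acs1A, 0 in acs4A, 1 in acs5C and 0 in acs9B, and without Col replicate 2 they were 0 in acs2C and 0 in acs9B. They were also 1 in acs1A without acs1A replicate 3, 2 or 0 in acs2C without acs2C replicate 2 or 3, 1 in acs5C without acs5C replicate 1 or 2, and 0 in acs9B without any 1 of its own arrays. In acs4A the count was 7 without acs4A replicate 1 and 0 without acs4A replicate 3.

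Values of acs6E against other lines, which also follow from the choice of the genes, stand beside those against Col. It was below the mean of the other 7 lines by -2.24 ± 0.19 for AT3G62550, -2.22 ± 0.28 for AT3G62950, -2.12 ± 0.26 for AT3G15630, -1.58 ± 0.18 for AT3G10020, -1.56 ± 0.14 for CCL, -1.45 ± 0.10 for AT4G14270 and -0.18 ± 0.19 for AT1G72060. The first 6 were called lower, as were 10.1% of all probe sets, though for AT3G62950 and AT3G10020 single arrays of other lines overlapped acs6E. The lines acs9B and acs5D had their arrays at the same bioC level as acs6E. Below acs9B all 7 genes were called in acs6E (14.3% of all probe sets lower), by -0.74 ± 0.24 for AT1G72060 to -2.93 ± 0.25 for AT3G62550, and below acs5D 6 were (5.23% lower), by -1.36 ± 0.19 for CCL to -2.57 ± 0.37 for AT3G62950. Set beside the differences against the mean of the other 7 lines, those against acs9B were larger for all 7 genes, while those against acs5D were smaller for AT3G62550 (-2.17), CCL and AT4G14270 (-1.40) and of the other sign for AT1G72060 (0.11). Against acs2B, acs6E was called lower for 2 genes (0.585% of all probe sets lower), AT3G62950 at -1.69 ± 0.37 and AT4G14270 at -0.89 ± 0.13. When the bioC level was added as a batch term AT3G62550, at -0.81 ± 0.25, became -1.36 and the count 3. The count was 1 without acs2B replicate 2, acs2B replicate 3, acs6E replicate 2 or acs6E replicate 3.

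The lines acs2B and acs2C, both with acs2 in their name, differed from each other for these genes, in a comparison that uses neither Col nor acs6E. In acs2B 6 genes were called lower, where 10.9% of all probe sets were. AT3G62550 is 1 of the 6, and its call is a description. AT3G62550, whose difference was known beforehand, was at 7.15, 8.17 and 7.54 in acs2B, against 9.48, 9.73 and 9.69 in acs2C (-2.02 ± 0.25). CCL was at 9.58, 10.24 and 9.73 in acs2B, against 11.24, 11.39 and 11.14 in acs2C, a difference of -1.4 ± 0.19 (limma adjusted p = 2.2e-05). The groups were apart by more than the range within either.

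AT1G72060, which was not called between acs6E and Col, was lower in acs2B by -1.34 ± 0.24, at 6.95, 7.06 and 6.88, against 8.26, 8.18 and 8.46 in acs2C (limma adjusted p = 0.00043). AT3G15630 was at 7.37, 8.44 and 7.93 in acs2B, against 9.25, 9.33 and 9.36 in acs2C (-1.4 ± 0.35, limma adjusted p = 0.0050). All 3 acs2B arrays were lower for both genes. AT3G10020 differed by -1.15 ± 0.23 and AT4G14270 by -0.74 ± 0.13 (limma adjusted p = 0.00099 and 0.00031), again with no overlap. How many of all probe sets had no overlap between acs2B and acs2C was not computed. The glutaredoxin gene AT3G62950 differed by -0.34 ± 0.37 with overlapping arrays, a 95% interval of -1.11 to 0.43 and an adjusted p of 0.60. The 6 calls were made when any 1 of the 6 arrays was left out. Without acs2B replicate 2, the acs2B array at the other bioC level, AT3G62550 differed by -2.29, CCL by -1.6 and AT1G72060 by -1.39.

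Between acs5C and acs5D, both with acs5 in their name, 0 of the 7 genes were called by limma (2.29% of all probe sets in either direction), and 0 had an unadjusted p under 0.05. The differences ran from -0.37 ± 0.35 for AT3G15630 to 0.23 ± 0.19 for CCL, and the 95% intervals reached -1.09 for AT3G15630 and 0.88 for AT3G62950. Fitted on the 6 arrays alone, AT3G15630 was called at the same -0.37 (adjusted p = 0.030). The share of higher among all calls in this comparison was 69.3%, and 56.3% with each array centred on its median. Line and bioC level coincide here and cannot be told apart.

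An F-test across acs1A, acs2C, acs4A, acs5C, acs5D and acs9B, the lines other than acs6E and acs2B, called 2 of 7 genes, where 21.2% of all probe sets were called. AT1G72060 spanned 1.05 between acs2C and acs4A (limma adjusted p = 0.0040), and CCL spanned 0.67 between acs9B and acs5D (adjusted p = 0.034). The CCL call was lost without acs1A replicate 3, acs2C replicate 1 or 2, any 1 acs5D array, or acs9B replicate 2 or 3 (0.053 to 0.073), and with a trended, robust estimate of the spread (0.077). Without acs4A replicate 1 the test called 6 genes, all but AT3G10020.

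Replicate arrays of some groups stood apart for these genes as a block. On acs4A replicate 1 all 7 were above the mean of their group, by 0.41 for AT4G14270 to 1.28 for AT3G15630, and on acs4A replicate 3 all 7 were below it, by -0.35 for AT4G14270 to -1.22 for AT3G62950. AT3G15630, for example, was at 9.93, 8.46 and 7.56 on the acs4A arrays, a range of 2.37 in a line in which the median probe set had an SD of 0.101. All 7 were above the group mean on acs2B replicate 2, by 0.10 to 0.55, and on Col replicate 1 of the single set, by 0.08 to 0.69. This held too on acs5D replicate 3, by up to 0.24, and acs9B replicate 3, by 0.01 to 0.28. It held as well on Col replicate 2 of the higher order set, by 0.11 to 0.37. On acs2B replicate 1 all 7 were below it, by -0.02 to -0.55. The same was seen on Col replicate 2 of the single set, by -0.09 to -0.54. Over all probe sets the deviations on acs4A replicate 1 had an SD of 0.19, the largest of any array. Its shift was thus not confined to these genes. The SD of the 7 genes had a median of 0.71 in acs4A, 0.38 in acs2B and 0.42 in Col of the single set. It was 0.12 to 0.20 in acs1A, acs2C, acs5C, acs5D, acs6E and acs9B, and 0.12 to 0.24 in the groups of the higher order set. The bioC level moves with acs2B replicate 2, which was the acs2B array at the higher level, and its part was not tested.

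**Figure D3:**
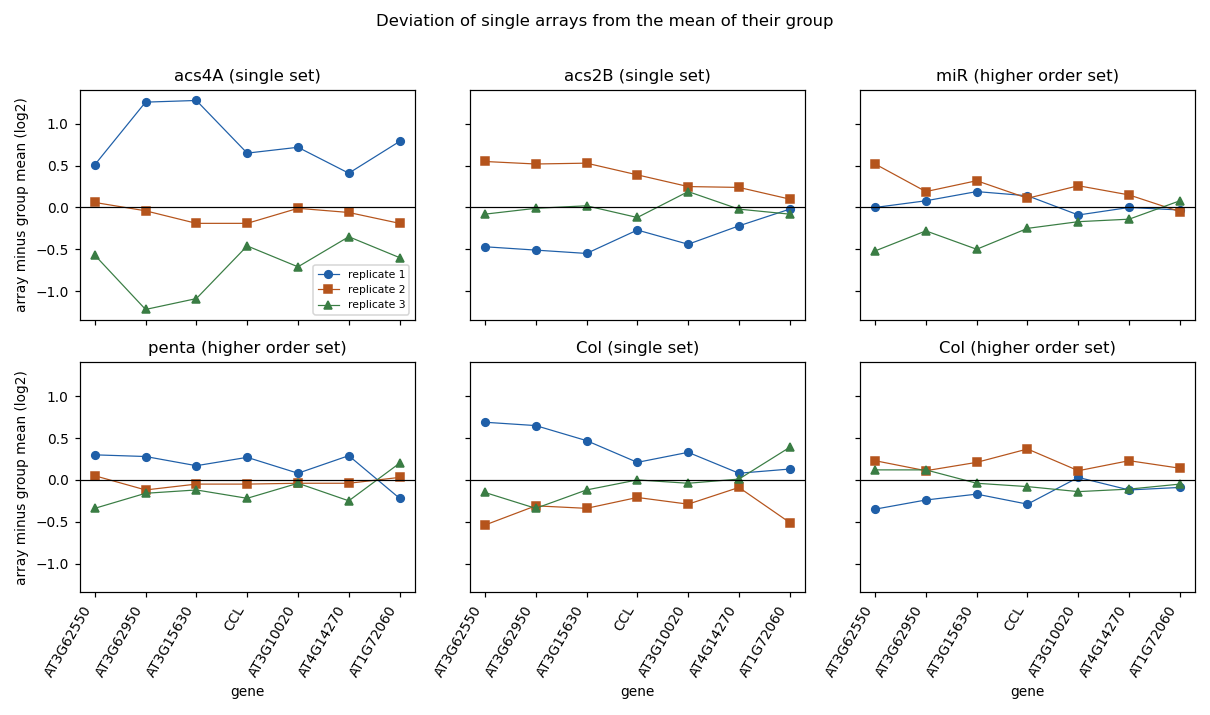
Deviation of each array from the mean of its group (vertical axis, log2) for the 7 genes (horizontal axis) in 6 of the 14 groups, with 1 line per array. On acs4A replicate 1 all 7 genes are above 0 and on acs4A replicate 3 all 7 are below 0, and the 6 genes other than AT1G72060 keep to the same side on most arrays shown.

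The 6 genes other than AT1G72060 varied together over arrays, and AT1G72060 less so. Over the 42 arrays, each gene centred on its set, Pearson r was 0.78 to 0.96 for the 15 pairs among the 6 genes and 0.40 to 0.65 for the 6 pairs with AT1G72060. Taken within groups, as deviations from the group mean, r was 0.66 to 0.93 and 0.35 to 0.55. AT3G15630 and AT3G62950 had the highest r within groups, 0.93, and AT3G62550 with CCL and CCL with AT4G14270 the highest over arrays, 0.96. Arrays share the line, the set and the normalization, and the genes were chosen for a common pattern, so these values describe the group and are not tests.

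In the higher order set the 7 genes were not raised equally by the 4 lines. An F-test among penta, hexa, hepta and miR, which does not use Col, called all 7 (18.6% of all probe sets), with limma adjusted p of 2.4e-07 for AT1G72060 to 0.0047 for AT3G15630, and called all 7 when any 1 line array was left out. The values of these lines entered the choice of the genes through their differences from Col, and the genes share deviations on arrays. The 7 calls are thus not independent of the choice or of each other. Hepta was the highest line for AT3G62550, CCL and AT4G14270, miR for AT3G15630, AT3G10020 and AT1G72060, and penta for AT3G62950. Neighbouring lines in these orders often overlapped, as hepta and miR did for AT3G62950, AT3G15630, AT3G10020 and AT4G14270.

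Hexa and penta differed for 2 of the 7 genes, in opposite directions (7.31% of all probe sets in either direction). AT3G62950 was lower in hexa by -1.13 ± 0.16 and AT1G72060 higher by 0.87 ± 0.10 (limma adjusted p = 2e-04 and 3.1e-05), and both calls held without any 1 array. The other 5 differed by -0.40 for CCL to 0.23 for AT3G10020.

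Hepta was higher than penta for 4 genes (1.66% of all probe sets higher). AT3G62550 was higher by 1.51 ± 0.20, or 2.84-fold, AT1G72060 by 0.87 ± 0.10, CCL by 0.64 ± 0.15 and AT3G10020 by 0.56 ± 0.10 (limma adjusted p = 0.00012, 2.8e-05, 0.020 and 0.0030). The CCL call was lost without penta replicate 2 or 3 or hepta replicate 1 or 3 (adjusted p = 0.051 to 0.11) and with the trended, robust spread (0.058). Hepta was also higher than hexa for 4 genes (2.42% higher), AT3G62550 by 1.37 ± 0.20, CCL by 1.04 ± 0.15, AT3G62950 by 0.90 ± 0.16 and AT4G14270 by 0.77 ± 0.13 (adjusted p = 0.00051, 4e-04, 0.0027 and 0.0016), calls made without any 1 array as well. AT1G72060 differed by 0.01 ± 0.10 between hepta and hexa, with a 95% interval of -0.21 to 0.23.

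The line miR was higher than hexa for all 7 genes (4.72% of all probe sets higher), by 0.57 ± 0.10 for AT1G72060 to 0.99 ± 0.16 for AT3G62950, with no overlap between the arrays of these lines. How many of all probe sets had no overlap here was not computed. Limma gave adjusted p of 0.00078 for AT3G62950, 0.0018 for AT3G10020, 0.0021 for AT1G72060, 0.0026 for AT3G15630, 0.0028 for AT4G14270, 0.018 for CCL and 0.047 for AT3G62550. The last of these was lost without any 1 hexa array or miR replicate 1 or 2 (0.078 to 0.22, with a difference of 0.43 without miR replicate 2), after a second quantile normalization (0.056), with the trended, robust spread (0.13) and on the 6 arrays alone (0.087). The CCL call was lost without hexa replicate 1 or 2 or miR replicate 1 or 2 (0.056 to 0.086).

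Above penta, miR was called for 4 genes (9.15% higher): AT1G72060 by 1.44 ± 0.10, AT3G62550 by 0.83 ± 0.20, AT3G10020 by 0.80 ± 0.10 and AT3G15630 by 0.57 ± 0.16 (limma adjusted p = 3.1e-08, 0.0088, 3.1e-05 and 0.024). AT3G62550 was lost without penta replicate 3 or miR replicate 2 (0.051 each), and AT3G15630 without penta replicate 2 or 3 or miR replicate 1 or 2 (0.082 to 0.12) and on the 6 arrays alone (0.072). The count fell to 2 without penta replicate 3 and without miR replicate 2. Between miR and hepta, AT1G72060 was higher in miR by 0.56 ± 0.10 (adjusted p = 0.0017) and AT3G62550 lower by -0.68 ± 0.20 (adjusted p = 0.041), where 9.59% of all probe sets were called in either direction. The AT3G62550 call was lost without any 1 hepta array or miR replicate 1 or 3 (0.078 to 0.18, with a difference of -0.42 without miR replicate 3), with the trended, robust spread (0.12) and on the 6 arrays alone (0.077).

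**Figure D4:**
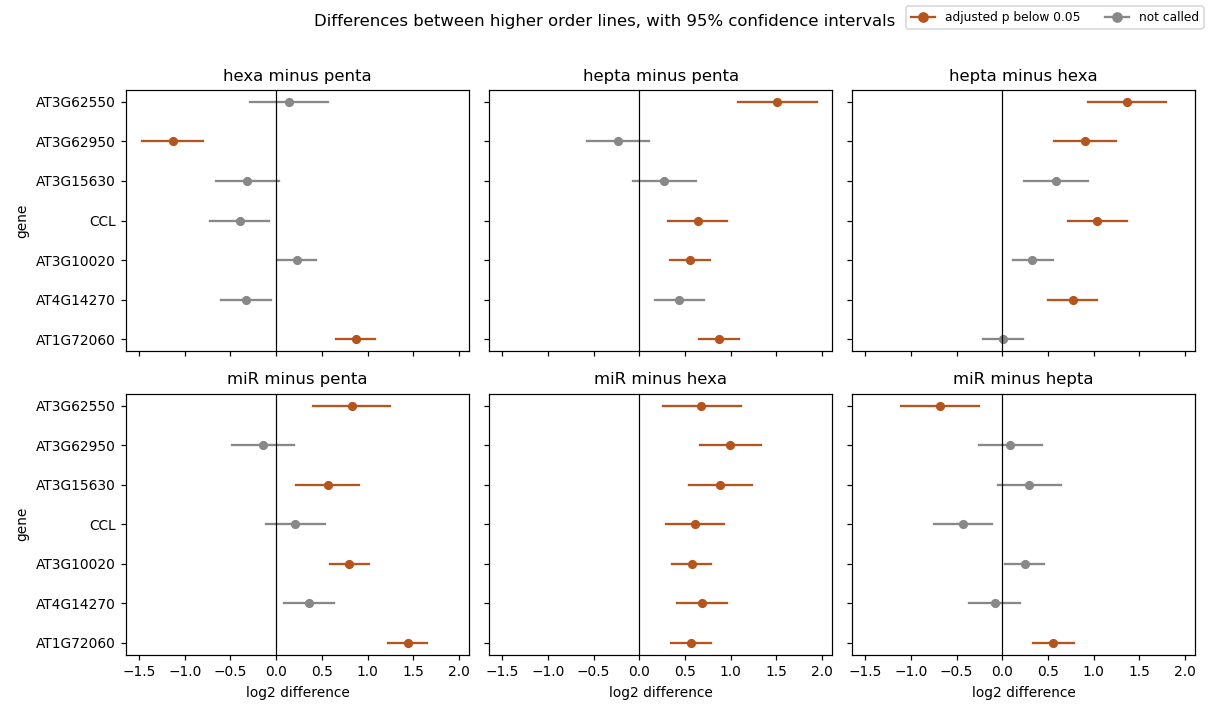
Log2 differences (horizontal axes) between pairs of the 4 higher order lines for the 7 genes (vertical axes), as points with 95% confidence intervals, coloured where limma's adjusted p was below 0.05. All 7 genes lie above 0 for miR against hexa, and AT3G62950 and AT1G72060 lie on opposite sides of 0 for hexa against penta.

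The Col arrays of the sets, labelled alike, did not stand at the same place for these genes. As a percentile among all probe sets of an array, AT3G62550 was at 55.2 in Col of the higher order set and at 91.9 in Col of the single set, AT3G62950 at 22.8 and 58.6, and AT3G15630 at 48.7 and 81.5. Of the 22746 probe sets 1, 2 and 4 had a larger percentile fall than these 3 genes. AT4G14270 was at 65.8 and 89.3, AT3G10020 at 70.9 and 88.7, AT1G72060 at 48.9 and 60.3 and CCL at 88.6 and 97, in the same order of sets. For these, 11, 73, 284 and 695 probe sets had a larger fall. The genes were chosen by differences from these Col arrays, a choice that favours such a fall, so the ranks are a description. The acs6E arrays, at the 50.2, 28.8, 49.0, 63.9, 64.3 and 86.1 percentile for AT3G62550, AT3G62950, AT3G15630, AT4G14270, AT3G10020 and CCL, were near the Col arrays of the higher order set. The higher order lines lay between the 75.2 and 91.4 percentile for AT3G62550, within the 50.2 to 90.3 of the single lines except at the upper end. Their ranges overlapped those of the single lines for the other 6 genes as well. The single-line ranges include acs6E, chosen for low values. In hexa AT3G62950, AT3G15630 and AT4G14270, at 37.0, 65.7 and 76.3, were below every single line other than acs6E. The lowest of those lines were acs4A at 46.9, acs2B at 67.6 and acs2B at 78.0, in the same order of genes. The sets were treated as normalized apart and this comparison across them was not tested; labelling, hybridization and growth of the sets cannot be told apart.

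The pattern that chose the genes, lower in acs6E and higher in all 4 higher order lines, was met by 147 of the 22746 probe sets (0.646%), of which 6 were these genes without AT1G72060. All 4 higher order lines were called higher for 184 probe sets (0.809%), among them all 7. The count of 147 was 60 without Col replicate 1 of the higher order set, 74 without Col replicate 3 of that set, 90 without penta replicate 1 and 87 without penta replicate 2.

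By the measure of likeness used here, Pearson r with the mean of the 7 genes over the 14 group means, each centred on its set, the most alike of 98 candidate genes was AT1G56220 with r of 0.985. It was lower than Col by -1.47 in acs6E and higher by 1.26 in hepta. AT1G02300 (0.969), AT2G39400 (0.962), AT3G47160 (0.955), AT3G49790 (0.949) and AT5G61590 (0.947) followed, with differences of -1.02 to -1.46 in acs6E. The most opposite were AT5G20790 (-0.896), AT5G54130 (-0.895) and AT5G42760 (-0.857), which were higher than Col in acs6E by 1.52, 1.32 and 1.51 and lower in miR by -1.72, -1.23 and -1.16. Candidates were named genes whose group means spanned at least 1 on the log2 scale in both sets. The 7 genes themselves had r of 0.82 to 0.98 with the mean of the other 6, except AT1G72060 with 0.593.

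Of 39 genes known to respond to darkness and sugar starvation 9 had a named probe set. In acs6E 7 of the 9 were called lower (median -0.82), as were 15.5% of all probe sets. In the higher order set 7 were called higher in penta (median 0.79, 2.08% of all probe sets), 2 in hexa (0.33, 4.44%), 8 in hepta (1.03, 6.96%) and 9 in miR (0.85, 12.3%). AT3G15450 was at 10.36 ± 0.55 in acs6E and 12.25 ± 0.45 in Col (SD, n = 3 each; -1.89 ± 0.43), AT4G27450 differed by -1.56 ± 0.27, AT5G19120 by -1.38 ± 0.27 and AT1G23390 by -1.22 ± 0.19, with limma adjusted p of 0.0016, 0.00015, 0.00049 and 4.5e-05. In hepta AT3G15450 was at 11.76 ± 0.08 and in Col of that set at 10.19 ± 0.37 (1.57 ± 0.18, adjusted p = 1.3e-05). Also on the list were AKINBETA1, which encodes a subunit of the SnRK1 energy-sensing kinase, at -0.76 in acs6E and 0.87 in hepta, and ATG8E, an autophagy gene, at -0.68 and 0.63, all called. The acs6E call of AKINBETA1 was lost without Col replicate 1 or 3 or any 1 acs6E array (limma adjusted p = 0.052 to 0.16), and that of ATG8E without Col replicate 1 or acs6E replicate 1 (0.070 and 0.078).

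The count in penta was 4 without Col replicate 1 or penta replicate 1, and in hexa it was 0 without Col replicate 1, 4 without Col replicate 2 and 1 without hexa replicate 2. In comparisons without Col, 9 of the 9 were lower in acs6E than the mean of the other 7 lines (median -1.14, 10.1% of all probe sets), 7 were lower in acs2B than in acs2C (-1.14, 10.9%), 6 were higher in hepta than in hexa (0.61, 2.42%) and 6 higher in miR than in hexa (0.52, 4.72%). Between hexa and penta 3 were lower in hexa and 0 higher (median -0.24, 3.91% of all probe sets lower). The medians over all probe sets in these comparisons were -0.008, -0.006, -0.012, -0.007 and 0.027. Leaving out single arrays was not run for these counts.

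Of 45 genes of the core response to low oxygen 18 had a probe set. In acs6E 7 were called lower and 0 higher (median -0.25), in penta 1 was higher and 1 lower (0.09), in hexa 1 was lower (0.14), in hepta 7 were higher and 1 lower (0.19) and in miR 7 were higher and 1 lower (0.19). Of all probe sets 15.5% were called lower and 13.4% higher in acs6E. The shares were 2.08% higher and 1.13% lower in penta, 4.44% and 3.61% in hexa, 6.96% and 5.08% in hepta and 12.3% and 8.61% in miR. The fall from Col was not particular to acs6E. In acs2B 5 were called lower and 0 higher (median -0.21, 12.5% of all probe sets lower), and in acs9B 4 and 0 (-0.24, 14.7%). Against the mean of the other 7 lines, acs6E had 5 lower and 1 higher (-0.03, 10.1% and 11.9%). AT1G33055 differed from Col by -1.65 ± 0.31 in acs6E and 1.54 ± 0.22 in hepta (limma adjusted p = 0.00028 and 0.00011), and AT5G42200 by -1.53 ± 0.15 and 0.81 ± 0.15 (adjusted p = 8.9e-08 and 0.0014). AT4G10270 was higher in hepta by 1.21 ± 0.21 (adjusted p = 0.00077), and CML38, which encodes a calmodulin-like protein of the low oxygen response, was lower in acs6E by -0.79 ± 0.17 (adjusted p = 0.00082). PDC2, for the fermentation enzyme pyruvate decarboxylase, differed by -0.12 in acs6E and 0.18 in hepta, neither called, and was higher in miR by 0.38 ± 0.09 (adjusted p = 0.0076). The count of either direction was 5 in hepta without hepta replicate 3. In penta it was 1 without Col replicate 1 or any 1 penta array and 0 without Col replicate 3, and in hexa it was 2 without Col replicate 1 or 2 and 0 without Col replicate 3 or hexa replicate 1.

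Relatives of AT3G62550 and AT3G62950 gave mixed counts. Of 18 further genes with a universal stress protein domain 17 were measured, with 4 lower and 1 higher in acs6E (median -0.01), 0 called in penta (0.08) or hexa (0.01), 4 higher in hepta (0.10) and 2 higher and 1 lower in miR (0.00). Over all probe sets the shares called were 15.5% lower and 13.4% higher in acs6E, 6.96% higher in hepta, and 12.3% higher and 8.61% lower in miR, so the acs6E and miR counts are near that background. At an unadjusted p under 0.05 limma had 4 in penta and 5 in hexa. AT3G53990 was lower in acs6E by -0.55 ± 0.11 and higher in hepta by 0.55 ± 0.09 (limma adjusted p = 0.00044 and 0.00038). AT1G11360 was lower in acs6E by -0.43 ± 0.07 (adjusted p = 0.00011), and in hepta AT3G17020 was higher by 0.38 ± 0.10 and AT5G14680 by 0.30 ± 0.09 (adjusted p = 0.020 and 0.031). The AT3G17020 call was lost without Col replicate 1 or hepta replicate 1 or 3 (0.069 to 0.13), and that of AT5G14680 without any 1 array but Col replicate 2 (0.056 to 0.13). The count in hepta was then 1 without Col replicate 1, hepta replicate 1 or hepta replicate 3, and in miR 1 without Col replicate 1.

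Of 20 further CC-type glutaredoxin genes 16 were measured. In acs6E 1 was higher and 3 lower (median -0.07), and in the higher order set 2 were higher and 1 lower in penta (-0.03), 4 and 2 in hexa (0.09), 1 and 3 in hepta (0.15) and 6 and 1 in miR (0.15). Over all probe sets 13.4% were called higher and 15.5% lower in acs6E, 2.08% and 1.13% in penta, 4.44% and 3.61% in hexa, 6.96% and 5.08% in hepta and 12.3% and 8.61% in miR. The glutaredoxin genes with the largest differences were all higher in miR, AT4G15680 by 1.18 ± 0.17, AT4G15700 by 0.97 ± 0.16, AT4G15690 by 0.87 ± 0.15 and AT4G15660 by 0.86 ± 0.12 (limma adjusted p = 1e-04, 0.00027, 0.00042 and 8.4e-05). They are near copies of each other, so their probe sets may share signal. In acs6E these 4 differed by -0.34 to 0.23 and were not called. The count in penta was 0 without Col replicate 1 or penta replicate 1 and 1 without Col replicate 3 or penta replicate 2, and in hexa it was 2 without Col replicate 1, hexa replicate 1 or hexa replicate 2 and 3 without Col replicate 2.

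**Figure D5:**
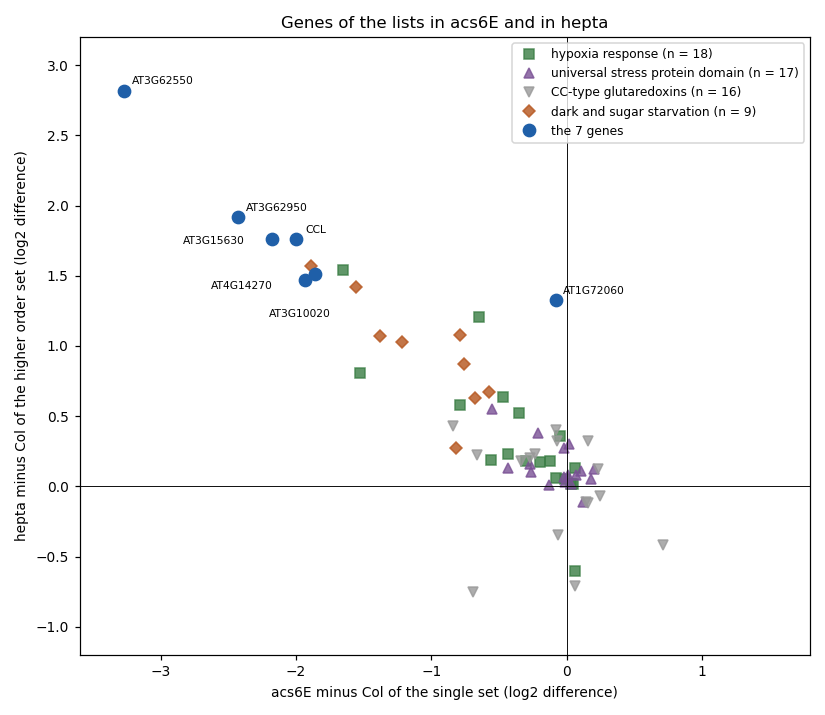
Log2 difference from Col in hepta (vertical axis) against that in acs6E (horizontal axis) for the 7 genes and for the measured genes of 4 lists, 1 point per gene. All 9 genes of the dark and sugar starvation list and 6 of the 7 genes fall where values are lower in acs6E and higher in hepta, while AT1G72060 lies at -0.08 and 1.33.

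The other lists were thinly covered. Of 28 circadian clock genes only GI had a named probe set, which differed from Col by 0.10 ± 0.10 in acs6E and 0.38 ± 0.10 in hepta (limma adjusted p = 0.49 and 0.015), and by 0.35 ± 0.10 in hexa (adjusted p = 0.031). The hepta call was lost without Col replicate 2 or hepta replicate 2 or 3 (0.052 to 0.077), and the hexa call without Col replicate 2 or 3 or hexa replicate 1 (0.080 to 0.16). Of 15 further PAM2 motif genes 0 had a probe set. Of 8 shoot markers RCA was measured, at 14.22 in acs6E and 14.23 in Col and at 13.77 in hepta and 13.77 in Col, and of 5 root markers PYK10, EXPA7 and EXPA18 were, with differences of -0.04, 0.38 and 0.34 in acs6E and 0.17, 0.00 and -0.25 in hepta. None of these 3 was called against Col in acs6E or a higher order line, with 2 in acs6E, 1 in penta and 2 in hepta at an unadjusted p under 0.05 by limma. Without Col replicate 1, 2 were called in acs6E.

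Some genes near the 7 in the RefSeq gene order were named on the array. Close to AT3G62950, the glutaredoxin genes AT3G62930 and AT3G62960 differed by -0.66 ± 0.14 and 0.16 ± 0.16 in acs6E and by 0.22 and -0.12 in hepta. AT3G62560, next to AT3G62550, differed by -0.10 in acs6E and 0.17 in hepta, and AT3G26730, next to CCL, by 0.24 and 0.15. AT3G10040, close to AT3G10020 and itself on the low oxygen list, differed by -0.35 and 0.52. AT1G72070, next to AT1G72060, differed by -0.30 in acs6E, -0.01 in penta, 0.33 in hexa, 0.21 in hepta and 0.76 in miR.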

How the data were processed

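Each array's deposited table gives 1 log2 value per probe set, made by the authors with RMA per the submitters' processing notes. RMA corrects background, normalizes by quantiles and summarises probes. No label gives its version or which arrays were normalized jointly. The method compresses the differences of dim probe sets. Biotin-labelled cRNA came from 10 ug of total RNA, per the labels' protocols. The number of arrays, 3 a group, limits the precision.

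Of 22810 probe sets, 64 controls were left out and 22746 tested, with no filter. The platform annotation gave 13513 of them a single gene symbol, and 13484 of these matched a locus of the RefSeq table of TAIR10.1, used for names and gene order. Both sets were fitted separately in limma 3.58.1 under R 4.3.3 by lmFit and eBayes, 1 coefficient per group, so that all groups of a set share the estimate of the spread. P-values are two-sided and adjusted by Benjamini-Hochberg over all probe sets, and a call is an adjusted p below 0.05. Differences carry their SE. A check of the test on simulated data drew each probe set independently, so it does not cover the deviations that genes share on an array. P-values set a difference against the spread between arrays within groups, pooled over all groups of a set, although groups differed in that spread.

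The 7 genes, the 8 gene lists (178 entries, 65 measured) and the comparisons were chosen with earlier results of these data known. The brightest probe set stood for a listed gene. From each list up to 4 genes with the largest called difference in acs6E, penta, hexa, hepta or miR were named; AKINBETA1, ATG8E, PDC2 and the gene neighbours were added after their values were seen. Genes of like pattern were the 6 of highest and 3 of lowest r. Alternatives were a second quantile normalization, centring on the median, dim probe sets left out, a trended and robust spread, only the groups compared, the bioC level as a batch term, the replicate number as a block and each array left out. Promoter motifs were not searched, since promoter sequences were not used here.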

Additional observations from a re-analysis of the deposited data

Results flagged for a closer look

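The lines acs2B and acs2C both have acs2 in their name and were set against the same Col arrays. Between them 6 of the 7 genes differed, AT3G62550 as a description and the rest by a direct test of the lines. The difference of acs2B from acs2C was -2.02 ± 0.25 (SE) for AT3G62550, -1.4 ± 0.35 for AT3G15630, -1.4 ± 0.19 for CCL, -1.15 ± 0.23 for AT3G10020, -0.74 ± 0.13 for AT4G14270 and -1.34 ± 0.24 for AT1G72060. All 3 acs2B arrays lay below all 3 acs2C arrays for each of these genes, and the share of all probe sets parted in this way was not computed. By limma 10.9% of all probe sets were called lower in acs2B than in acs2C. Against Col, acs2B and acs2C stood at -2.47 and -0.45 for AT3G62550, at -1.39 and 0.01 for CCL, and at -0.52 and 0.82 for AT1G72060. The AT3G62550 value was known before these genes were chosen and is a description.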

How the results depend on the processing

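Over the alternatives, 913 values of tested differences kept their direction and side of the threshold, 22 passed and 40 no longer passed. Of the described ones 1401 stayed within their spread and 97 moved, and 0 of those past the threshold changed sign. Sign changes of described differences not past the threshold were not counted. The cause was not tested. Sign changes of tested differences numbered 12, all of differences not past the threshold. For acs5C minus acs5D they were AT3G15630 at 0.42 and AT1G72060 at 0.14 with the bioC batch term, AT1G72060 at 0.13 without acs5C replicate 2, AT3G62550 at -0.03 without acs5C replicate 3, and AT3G62950 at -0.11 and AT1G72060 at 0.11 without acs5D replicate 1. The bioC term was estimated from acs2B replicate 2 alone. The ranges over left-out arrays for acs5C minus acs5D were -0.03 to 0.19 for AT3G62550, -0.11 to 0.23 for AT3G62950 and -0.15 to 0.13 for AT1G72060. AT3G62550 was at -0.03 (range to 0.29) for hexa minus penta without penta replicate 3. AT1G72060 was at -0.08 for hepta minus hexa without hexa replicate 1 and -0.04 without hepta replicate 3 (range to 0.06). For miR minus hepta AT3G62950 was at -0.11 without hepta replicate 1 and -0.01 without miR replicate 2 (range to 0.23), and AT4G14270 at 0 without hepta replicate 2 (range from -0.17). With the trended, robust spread the number of the 7 genes called was 0 for acs9B minus Col and 1 each for acs6E minus acs2B, miR minus hepta and the F-test among 6 single lines. With only the groups compared it was 0 for acs4A minus Col, 1 for acs5C minus acs5D, 4 for acs6E minus acs2B and 1 for miR minus hepta.

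Leaving out 1 array gave 1 to 3 genes in acs1A, 0 to 2 in acs2C, 0 to 7 in acs4A, 1 to 2 in acs5C and 0 to 1 in acs9B against Col, 1 to 3 for acs6E minus acs2B, 2 to 5 for miR minus penta, 1 to 2 for miR minus hepta, 1 to 6 in the F-test among single lines, and 60 to 183 probe sets with the joint pattern. For the gene lists, leaving out arrays was chosen after seeing the data. It gave 0 to 2 root markers in acs6E (2 also after the second quantile normalization), 4 to 7 dark and sugar genes, 0 to 3 low oxygen genes and 0 to 3 glutaredoxins in penta, 0 to 4, 0 to 2 and 2 to 5 of these in hexa, 5 to 8 low oxygen and 1 to 4 stress protein genes in hepta, and 1 to 4 stress protein genes in miR.

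Replicate numbers did not pair the arrays: same-numbered arrays of different groups had a median correlation of deviations of 0.01 (single set) and 0.03 (higher order set). With the replicate number as a block, AT4G14270 for hepta minus penta (0.44, adjusted p = 0.044), AT3G15630 for hepta minus hexa (0.59, 0.047) and AT4G14270 for miR minus penta (0.36, 0.046) passed in limma, and 149 probe sets had the joint pattern.

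Over all probe sets, the share called in either direction against Col with only the groups compared was 18.7% in acs6E (28.8% with all groups), 15.8% in acs2C (26.6%), 12.5% in acs9B (25.6%), 11.2% in acs2B (22.7%), 10.2% in acs1A (21.4%), 8.07% in acs5D (17.6%), 8.03% in acs5C (19.2%) and 2.51% in acs4A (20.3%). The share for acs6E minus the mean of the other lines was 10.3% with the bioC term and 22.0% without. The bioC term rests on acs2B replicate 2 alone, here and in the 0.127% for acs5C minus acs5D below. Without Col replicate 1 the share was 1.13% in penta (3.2% with all arrays) and 7.90% in hepta (12%). Between lines it was 4.04% for hexa minus penta without penta replicate 2 (7.31%), 2.53% for hepta minus hexa (3.95%) and 4.47% for miR minus hexa (7.83%) without hexa replicate 1, and 6.12% for miR minus hepta with only these groups (9.59%). Over the alternatives it was 0.127% to 4.70% for acs5C minus acs5D, 6.92% to 18.0% for acs6E minus acs5D and 0.400% to 1.99% for acs6E minus acs2B. The number of arrays limits the precision.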
